A study of Mus musculus with 6 samples.

Results

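The genes described here encode the integrins, the laminins, the other core basement membrane proteins and dystroglycan, the molecules that hold a muscle stem cell against its fiber. A list of 36 genes was looked up by Ensembl identifier in a count table of 31053 genes, and all 36 were found. It holds 13 integrin alpha chains, 8 integrin beta chains, 5 laminin alpha chains, 5 laminin beta and gamma chains, 4 genes for nidogens, agrin and perlecan, and Dag1, the gene of dystroglycan. Of these, 33 passed the expression minimum and were tested.

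RNA was sequenced from quiescent muscle stem cells (qMuSCs) sorted by FACS from resting muscle, with a library for every mouse. The 3 WT mice are called c124, c129 and c130, and the 3 cD2KO mice fl125, fl126 and fl128. The WT genotype was Pax7nGFP/+;Pax7+/+;Dio2Fl/Fl and the cD2KO genotype Pax7nGFP/+;Pax7-CreERT2/+;Dio2Fl/Fl. All 6 mice were 3 to 4 months old, were given tamoxifen and carried the nuclear GFP reporter on which cells were sorted as well as both floxed alleles of Dio2, the gene of the thyroid hormone-activating enzyme D2. The tamoxifen-inducible Cre, driven by Pax7, was present only in cD2KO mice, so that an effect of Cre and of the loss of Dio2 cannot be told apart. The comparison asks how the adhesion genes of qMuSCs differ after deletion of Dio2 in Pax7-expressing cells.

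Satellite cells lie between the plasma membrane of the muscle fiber and the basement membrane around it. Integrins are dimers of an alpha and a beta chain that bind matrix proteins outside the cell and, through talin, kindlin and integrin-linked kinase, the actin cytoskeleton inside it. Laminins are trimers of an alpha, a beta and a gamma chain that form the basement membrane sheet, nidogens and perlecan tie this sheet to collagen IV, and dystroglycan is the other main laminin receptor of muscle. In muscle, the laminin of the fiber surface contains the alpha 2 chain, whereas alpha 4 and alpha 5 chains are known from blood vessels and the neuromuscular junction.

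Total counts ranged from 2184073 (fl125) to 3897787 (c124), and 3 counts, taken as the floor, equalled 0.768 to 1.36 CPM (counts scaled to library size with TMM factors). Dio2 itself had 21, 5 and 10 counts in c124, c129 and c130 and 15, 5 and 1 counts in the libraries labelled fl125, fl126 and fl128, so the targeted gene did not separate the groups. At 6.80 CPM its level was higher in fl125 than in any other mouse, against its label, and group names here are those of the labels. These counts are few and cover the whole gene, and the floxed exon was not measured separately. The study itself reports that tamoxifen depleted D2 in most qMuSCs of its cD2KO mice. All 12 muscle stem cell markers had counts in every mouse, with Pax7 at 211 to 431 CPM in WT and 314 to 688 CPM in cD2KO. RNA of other cells was also present in every library. Acta2, the smooth muscle actin gene, was at 1559 to 7901 CPM, above Pax7 in all 6 mice. In RNA of bulk sorted cells, fewer cells of a type and less RNA per cell cannot be told apart.

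Of the 33 members tested, 4 rose in the sorted cells of cD2KO mice (Lama5, Itga3, Itga7 and Lamb2) and 2 fell (Itgb2 and Nid1). The threshold was that of the study, an unadjusted p under 0.05, here in the quasi-likelihood test of edgeR. The shares were 12.1% higher and 6.06% lower, beside 5.34% higher and 6.62% lower among all 11633 genes tested, and with DESeq2 size factors 4 members were higher and 1 lower. Because members were chosen with earlier results of these data known, these shares are no independent measure of an excess. With Benjamini-Hochberg adjustment of edgeR's p over all genes, 0 members were under 0.1 and the lowest value was 0.124, for Lama5. Of all genes, 33 were higher and 57 lower at that line. The median log2 fold change (cD2KO over WT) of the 33 tested members was 0.10, with 18 above and 15 below 0, and that of all genes tested was -0.02. The 3 cD2KO mice lay all above the 3 WT mice in 5 members (15.2%, beside 8.1% of all genes) and all below them in 5 members (15.2%, beside 10%). Without fl125, the library with the fewest counts, 8 members were higher and 1 was lower, as Itga5, Itga8, Itga10 and Itgb4 joined the higher genes and Nid1 left the lower. Without c129, 4 members were higher and 0 lower by edgeR, with Itga5 in place of Lamb2.

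**Figure D1:**
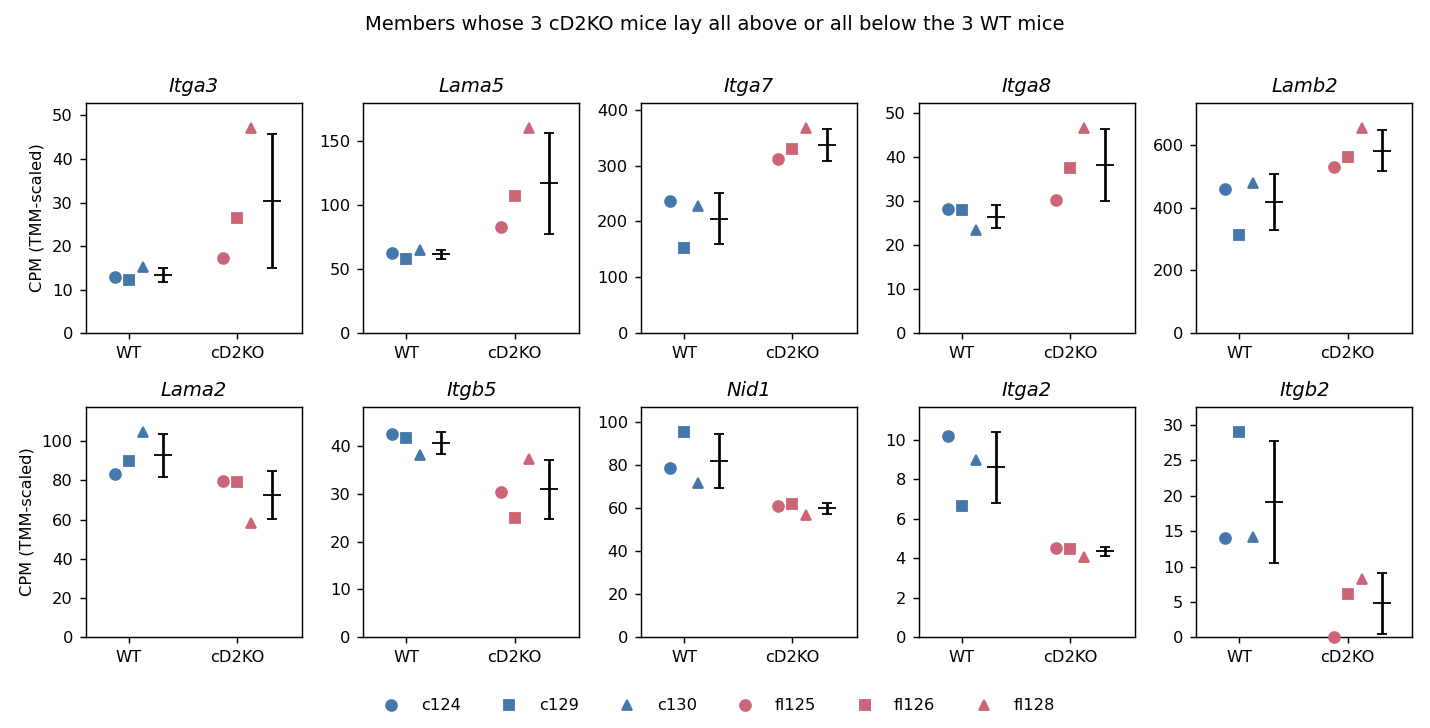
Expression (CPM after TMM scaling, linear axes from 0) of the 10 members whose cD2KO mice lay all above (upper row) or all below (lower row) the WT mice. Each symbol is a mouse, the black bar is the mean and its whiskers are the SD of 3 mice, and in the upper row fl128 is the highest mouse in every panel.

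The regulatory sequence upstream of the genes that moved is shown first, since 3 of the 4 higher members and a lower member had an entry in the RefSeq promoter table (GRCm38.p6). Each sequence is the 250 bases before the start that RefSeq gives, 5′ to 3′ on the strand of the gene, and capitals mark GC boxes (GGGCGG or its reverse complement). Coordinates are chr2:180225860-180226109 on the minus strand for Lama5, chr11:95076715-95076964 on the minus strand for the first of the 2 starts listed for Itga3, chr9:108479612-108479861 on the plus strand for Lamb2 and chr13:13437352-13437601 on the plus strand for Nid1. A GENCODE transcript begins at the RefSeq start of Lama5 and of Itga3, whereas 0 begin at those of Lamb2 and Nid1, whose windows run into the gene as GENCODE places it, as does that of Itga3.
Lama5: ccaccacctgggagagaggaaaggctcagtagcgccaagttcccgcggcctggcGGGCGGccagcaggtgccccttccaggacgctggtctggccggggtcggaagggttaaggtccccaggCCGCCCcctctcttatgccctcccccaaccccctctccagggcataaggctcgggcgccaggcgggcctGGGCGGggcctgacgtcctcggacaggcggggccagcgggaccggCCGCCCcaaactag
Itga3: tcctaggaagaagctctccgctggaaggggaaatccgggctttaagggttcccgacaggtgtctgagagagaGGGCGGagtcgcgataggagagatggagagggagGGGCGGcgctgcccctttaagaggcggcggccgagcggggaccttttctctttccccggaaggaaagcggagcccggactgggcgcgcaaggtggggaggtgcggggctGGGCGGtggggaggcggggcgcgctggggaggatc
Lamb2: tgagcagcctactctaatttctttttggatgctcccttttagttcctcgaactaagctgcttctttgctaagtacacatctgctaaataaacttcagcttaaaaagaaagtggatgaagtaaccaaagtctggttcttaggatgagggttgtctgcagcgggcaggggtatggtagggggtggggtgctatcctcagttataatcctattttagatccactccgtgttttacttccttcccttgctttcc
Nid1: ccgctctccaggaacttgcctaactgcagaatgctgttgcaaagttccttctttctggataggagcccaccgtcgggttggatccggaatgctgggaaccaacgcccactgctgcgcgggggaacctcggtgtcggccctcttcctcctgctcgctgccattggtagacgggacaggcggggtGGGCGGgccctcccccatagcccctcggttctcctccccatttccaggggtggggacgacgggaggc

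The Lama5 window held 4 GC boxes at a GC content of 72.4%, and the Itga3 window held 3 at 67.6%. The Lamb2 window, which is in part inside the GENCODE gene, had 0 GC boxes and a GC content of 43.6%. That of Nid1, a lower member, held 1 GC box at 64.4%. A GC box was found in 32.7% of the 32851 mouse promoter windows of this length and in 14 of the 30 windows of the 25 members in the table. The hexamer AGGTCA, to which thyroid hormone receptors and other nuclear receptors bind, was searched on both strands and was in 0 of these 30 windows and in 14.0% of all windows. Its direct repeat with a spacing of 4 bases was also in 0 of 30, and in 0.0152% of all. The CArG box, the motif of serum response factor, was in 2 of the 30 windows (Lama2 and a second start of Itgb6) and in 1.47% of all. These are matches of letters in a short window and show neither binding nor its absence.

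Integrin alpha chains that bind laminin came first among the receptors. Itga7 (ENSMUSG00000025348, chromosome 10 from 128933818 to 128958282 of mm10) encodes the alpha chain of the main laminin-binding integrin of muscle. It was at 236, 152 and 227 CPM in c124, c129 and c130 and at 312, 329.6 and 368 CPM in fl125, fl126 and fl128. Every cD2KO mouse lay above every WT mouse, and the lowest WT mouse, c129, was the farthest from the others. Itga7 rose 1.64-fold (log2 fold change 0.71, standard error (SE) 0.21, adjusted p of 0.171 by edgeR), and its unadjusted p was under 0.05 in all 14 other settings run, including each mouse left out. Mettl7b overlaps Itga7 on the opposite strand, and since the use of strand in counting is not given in the sources used here, a part of these reads is uncertain.

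Itga3 (ENSMUSG00000001507, chromosome 11 from 95044474 to 95076801), whose integrin with beta 1 binds laminins with an alpha 5 chain, had the largest increase of the tested members on the log2 scale. Its levels were 12.8, 12.2 and 15.2 CPM in c124, c129 and c130 and 17.2, 26.4 and 47.2 CPM in fl125, fl126 and fl128. The groups did not overlap, but the lowest cD2KO mouse was near the highest WT mouse and fl128 was far above the rest. Itga3 rose 2.27-fold (log2 fold change 1.18, SE 0.37, adjusted p of 0.191 by edgeR). Without fl128 the log2 fold change was 0.71 and no longer passed the threshold, and it passed in the other 13 settings.

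Itga6, which pairs with beta 1 or beta 4 as another laminin receptor, did not move with Itga7 and Itga3. It had 498, 465 and 289 counts in c124, c129 and c130 and 322, 342 and 298 in fl125, fl126 and fl128, or 133 ± 35.9 and 119 ± 26.2 CPM in WT and cD2KO mice (SD, n = 3 each). The groups overlapped, with a log2 fold change of -0.17 (SE 0.24, adjusted p of 0.853 by edgeR). The ratio of Itga7 to Itga6 per kb of exon was 2.07, 0.988 and 2.53 in c124, c129 and c130 and 2.38, 3.14 and 4.38 in fl125, fl126 and fl128, so the groups overlapped in this ratio.

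Of Itga5, Itga8 and Itgav, alpha chains that bind ligands with an RGD motif, 0 passed the test. Itga8, an RGD-binding chain known from contractile cells, was nearest to it. It was at 28.2, 28.0 and 23.5 CPM in c124, c129 and c130 and at 30.4, 37.6 and 46.8 CPM in fl125, fl126 and fl128. The groups did not overlap (log2 fold change 0.53, SE 0.27, adjusted p of 0.463 by edgeR), and without fl125 its unadjusted p fell under 0.05 at a log2 fold change of 0.71. The fibronectin receptor chain Itga5 had a log2 fold change of 0.60 (SE 0.42), with WT at 8.45 to 16.9 and cD2KO at 9.97 to 24.2 CPM. The vitronectin receptor chain Itgav, at 0.07 (SE 0.26), changed sign without c129 and without fl128.

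The collagen-binding alpha chains went in different directions, and 0 passed the test. Itga2 was at 10.2, 6.63 and 9 CPM in c124, c129 and c130 and at 4.53, 4.45 and 4.09 CPM in fl125, fl126 and fl128. All cD2KO mice were below all WT mice, at 10 to 13 counts per cD2KO library, with a log2 fold change of -0.99 (SE 0.51, adjusted p of 0.481 by edgeR). The log2 fold changes of Itga1, Itga10 and Itga11 were 0.28, 0.58 and -0.68, with SE of 0.21, 0.41 and 0.73. Itga1 shares sequence on its own strand with the annotated gene Gm49395, as does Itga10 with Gm42957. Itga4, which binds VCAM-1 and fibronectin, had a log2 fold change of -0.66 (SE 0.40), and Itga9, a tenascin receptor, -0.40 (SE 0.41). Itga2b, the platelet chain, was at 3.81 to 8.84 CPM in the 6 mice with a log2 fold change of 0.10 (SE 0.57), whose sign turned when c124 or c130 was left out.

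**Figure D2:**
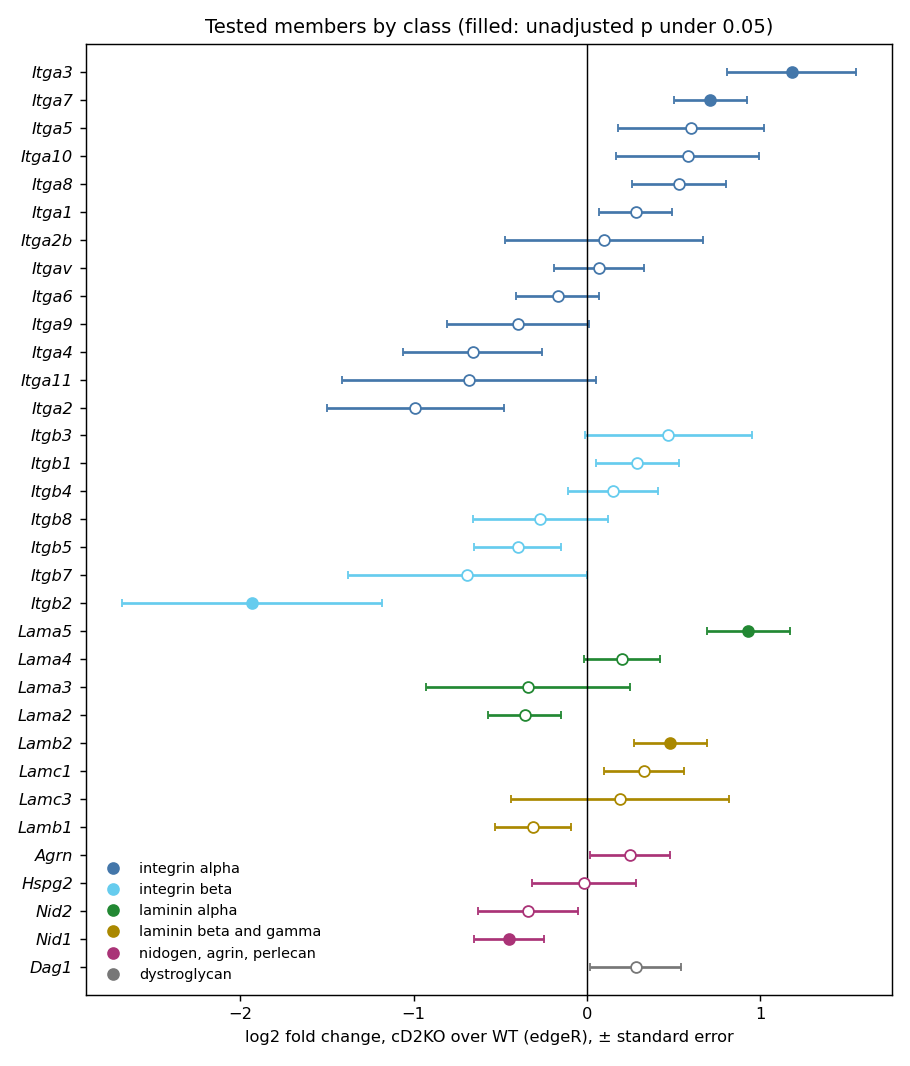
Log2 fold change (cD2KO over WT, edgeR) of the 33 tested members, grouped by class, with whiskers of 1 standard error. Filled points, at an unadjusted p under 0.05, are Itga3, Itga7, Lama5 and Lamb2 to the right of 0 and Itgb2 and Nid1 to the left.

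Of the 7 beta chains tested, 1 fell (14.3%, beside 6.62% of all genes) and 0 rose (beside 5.34%). A share that rests on 1 gene says little about the beta chains as a class. Itgb2 (ENSMUSG00000000290, chromosome 10 from 77530252 to 77565708) encodes the beta chain of the leukocyte integrins. Its counts were 55, 79 and 41 in c124, c129 and c130 and 0, 18 and 26 in fl125, fl126 and fl128, which is 14.1, 29.1 and 14.2 CPM and 0, 6.16 and 8.17 CPM. All cD2KO mice were below all WT mice, with c129 the highest and fl125 at 0, where up to 1.36 CPM is allowed by the floor. Itgb2 fell by 1.93 on the log2 scale (SE 0.75, adjusted p of 0.359 by edgeR), and its unadjusted p was over 0.05 in DESeq2 and without c129 or fl126, 3 of the 13 other settings in which it was tested.

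Markers of leukocytes moved with Itgb2. The summed level of 24 immune markers was 5447, 10216 and 6605 CPM in c124, c129 and c130 and 258, 3172 and 3755 CPM in fl125, fl126 and fl128, and 4 of the 22 tested were lower and 0 higher. Of all genes tested, 6.62% were lower and 5.34% higher. The markers Cd14, Cx3cr1, Ccr2 and Spi1 had no count in fl125. Itgam, which pairs with Itgb2 on macrophages and neutrophils, was at 22.8, 93.2 and 62.0 CPM in WT and 2.27, 15.1 and 17.0 CPM in cD2KO mice and fell by 2.32 on the log2 scale (adjusted p of 0.297 by edgeR). The same order was seen in Fermt3, the kindlin of blood cells, at 7.94, 17.7 and 9.35 CPM in WT and 0.453, 3.76 and 6.92 CPM in cD2KO mice (log2 fold change -1.58, adjusted p of 0.371 by edgeR). The other leukocyte alpha chains listed (Itgal, Itgax, Itgad and Itgae) were under the expression minimum. Itgb7, another leukocyte chain, ranged from 4.35 to 12.1 CPM in WT and from 0.906 to 8.49 CPM in cD2KO mice, with a log2 fold change of -0.69 (SE 0.69). The part of leukocyte RNA in the change of Itgb2 was not tested.

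Itgb1, the partner of most alpha chains in the list, was at 279.8, 155 and 269 CPM in c124, c129 and c130 and at 334, 268 and 262 CPM in fl125, fl126 and fl128. The groups overlapped, with a log2 fold change of 0.29 (SE 0.24, adjusted p of 0.691 by edgeR), so the rise of Itga7 and Itga3 was not matched by a detected rise of their beta chain. Itgb4, the partner of Itga6 known from hemidesmosomes, Schwann cells and blood vessels, had 659, 599 and 502 counts in c124, c129 and c130 and 284, 623 and 902 in fl125, fl126 and fl128, or 188 ± 28.6 and 208 ± 77.5 CPM in WT and cD2KO mice (SD, n = 3 each). Its log2 fold change of 0.15 (SE 0.26) turned to -0.13 without fl128 and reached 0.44 without fl125. Of the partners of Itgav, Itgb5 lay at 42.5, 41.6 and 38.1 CPM in WT and 30.4, 25 and 37.4 CPM in cD2KO mice, all lower, with a log2 fold change of -0.40 (SE 0.25, adjusted p of 0.578 by edgeR). Itgb3 and Itgb8 had log2 fold changes of 0.47 and -0.27 (SE 0.48 and 0.39). Itgb6, an epithelial chain, had 4, 0 and 0 counts in c124, c129 and c130 and 0, 0 and 2 in fl125, fl126 and fl128, and was not tested in edgeR (two-sided exact permutation test of CPM, p = 1).

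Among the ligands, Lama5 (ENSMUSG00000015647, chromosome 2 from 180176373 to 180225859) had the smallest p of the members. It encodes the laminin alpha 5 chain of mature blood vessels and many other basement membranes. Lama5 was at 62.2, 57.5 and 64.7 CPM in c124, c129 and c130 and at 82.9, 107 and 160.3 CPM in fl125, fl126 and fl128. WT mice lay close together, all cD2KO mice were above them, and the cD2KO mice were spread over a wide range. Lama5 rose 1.90-fold (log2 fold change 0.93, SE 0.24, adjusted p of 0.124 by edgeR), between 0.63 and 1.16 on the log2 scale with single mice left out, and kept an unadjusted p under 0.05 in all 14 other settings run.

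Lama2, the alpha chain of the muscle fiber's laminin, lay in the opposite direction. It was at 83.5, 89.9 and 105 CPM in c124, c129 and c130 and at 79.8, 79.1 and 58.2 CPM in fl125, fl126 and fl128. The groups did not overlap but were separated by a small gap, and the log2 fold change of -0.36 did not pass the test (SE 0.21, adjusted p of 0.526 by edgeR). Set against each other within a mouse, per kb of exon, Lama5 was 1.07, 0.917 and 0.883 times the level of Lama2 in c124, c129 and c130 and 1.49, 1.94 and 3.96 times in fl125, fl126 and fl128. In other words, the chains were at about equal levels per kb in WT mice and Lama5 exceeded Lama2 in all cD2KO mice. Since neither gene overlapped between groups and they lay in opposite directions, their ratio could not overlap either. It is therefore no separate observation. Lama4, the other chain known from vessels, was at 41.9 to 50.2 CPM in WT and 49.4 to 57.5 CPM in cD2KO mice, with a log2 fold change of 0.20 (SE 0.22, adjusted p of 0.783 by edgeR). Lama3 was low, at 2.40 to 7.73 CPM in the 6 mice, and Lama1 had 1 count in all mice together and was not tested. As a share of the 5 alpha chains per kb of exon, Lama5 made up 35.9%, 32.7% and 35.4% in WT mice and 41.9%, 48.9% and 63.2% in fl125, fl126 and fl128, and Lama2 made up 33.6%, 35.7% and 40.1% and then 28.1%, 25.2% and 16.0%. Levels per kb are compared on the assumption that reads cover whole transcripts, which the sources used here do not state. They also depend on exon length, taken as the union of all annotated exons of a gene, which can exceed the length of a transcript. This was 16.338 kb for Lama2 and 11.388 kb for Lama5. Without scaling to length, the mean of WT mice was 92.9 CPM for Lama2 and 61.5 CPM for Lama5.

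**Figure D3:**
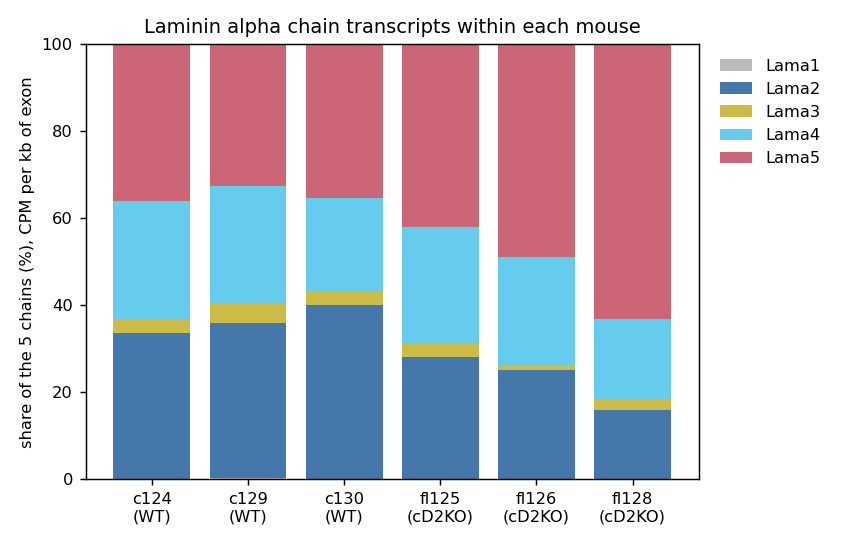
Share (%) of each of the 5 laminin alpha chains in their summed level (CPM per kb of exon) in each mouse, as stacked bars from 0 to 100. The Lama5 segment takes 32.7% to 35.9% in WT mice and grows to 41.9%, 48.9% and 63.2% in fl125, fl126 and fl128, and Lama1 is at or near 0 and cannot be seen.

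Lamb2 (ENSMUSG00000052911, chromosome 9 from 108479736 to 108490530), the beta chain of laminins at the neuromuscular junction and in arteries, was the laminin chain with the highest level per kb of exon. It was at 459.8, 314 and 477 CPM in c124, c129 and c130 and at 529.8, 561 and 655 CPM in fl125, fl126 and fl128. All cD2KO mice were above all WT mice, and c129 was the lowest mouse by a wide margin. Lamb2 rose 1.39-fold (log2 fold change 0.48, SE 0.21, adjusted p of 0.396 by edgeR), near the threshold. It no longer passed without c129 (log2 fold change 0.33), without c124, fl126 or fl128, or at a minimum mean of 50. Its unadjusted p was under 0.05 in 9 of the 14 other settings.

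Lamb1, the more widely expressed beta chain, was at 135, 109.8 and 160.3 CPM in WT and 122, 123 and 82.4 CPM in cD2KO mice, with a log2 fold change of -0.31 (SE 0.22, adjusted p of 0.637 by edgeR). The ratio of Lamb2 to Lamb1 per kb was 5.56, 4.66 and 4.86 in c124, c129 and c130 and 7.09, 7.42 and 13.0 in fl125, fl126 and fl128, with no overlap. As Lamb2 alone already separated the groups, this ratio is not independent of it. Lamc1, the gamma chain common to most laminins, had a log2 fold change of 0.33 (SE 0.23), with WT at 71.5 to 91.6 and cD2KO at 72.3 to 125 CPM. Lamc3 was near the expression minimum, at 2.77 to 9.43 CPM, with a log2 fold change of 0.19 (SE 0.63). Lamb3, an epithelial chain, had 13, 5 and 0 counts in WT and 3, 1 and 7 counts in cD2KO mice and was not tested in edgeR (two-sided exact permutation test of CPM, p = 0.8, where 3 mice against 3 cannot go below 0.1).

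Nid1 (ENSMUSG00000005397, chromosome 13 from 13437551 to 13512269), which links laminin to collagen IV, was the only linker gene that passed the test. It was at 78.8, 95.8 and 71.7 CPM in c124, c129 and c130 and at 61.2, 61.9 and 56.9 CPM in fl125, fl126 and fl128. The cD2KO mice lay close together, below all WT mice. Nid1 fell by 0.45 on the log2 scale (SE 0.20, adjusted p of 0.396 by edgeR), and passed the threshold in 5 of the 14 other settings, always with the same sign. Gm48682 overlaps Nid1 on the opposite strand. Nid2, its paralog, was at 29.2 to 49.4 CPM in WT and 22.7 to 40.0 CPM in cD2KO mice (log2 fold change -0.34, SE 0.29). Agrn, the gene of agrin, which clusters acetylcholine receptors and binds dystroglycan, had a log2 fold change of 0.25 (SE 0.23). Hspg2, which encodes perlecan, was at 70.9, 29.8 and 70.6 CPM in WT and 63.9, 60.2 and 46.5 CPM in cD2KO mice, and its log2 fold change of -0.02 (SE 0.30) changed sign in 7 of the 14 other settings.

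Dag1, the dystroglycan gene, had the highest mean level per kb of exon in WT mice, at 71.7 CPM per kb, with Lamb2 at 68.6, Itgb1 at 57.5, Itgb4 at 26.8 and Itga7 at 25.3 CPM per kb. Dag1 was at 513, 327 and 527 CPM in c124, c129 and c130 and at 751, 499 and 418 CPM in fl125, fl126 and fl128. The groups overlapped (log2 fold change 0.28, SE 0.26, adjusted p of 0.730 by edgeR).

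Across the 3 cD2KO mice, 13 of the 33 tested members (39.4%) increased in the order fl125, fl126 and fl128, beside 23.2% of all genes tested. How common this order is among all genes that lay above WT was not counted. All 5 members that lay above WT (Itga3, Lama5, Itga7, Itga8 and Lamb2) had this order. The total counts had it too, and so did the summed level of 14 mural markers (cells around blood vessels), at 12312, 13163 and 17835 CPM in fl125, fl126 and fl128, beside 10211, 6332 and 7678 CPM in c124, c129 and c130. Of these 14 markers, all with counts in every mouse, 6 rose and 0 fell, beside 5.34% and 6.62% of all genes tested. The 6 were Acta2, Myh11, Tagln, Cnn1, Mcam and Lmod1, and the median log2 fold change of the list was 0.41. The smooth muscle genes Acta2, Myh11 and Cnn1 had log2 fold changes of 1.17, 1.0 and 1.44 (adjusted p of 0.158, 0.123 and 0.0885 by edgeR). The other 8 lay between -0.36 and 0.43 and did not pass the test. Acta2 and Myh11 made up most of the mural sum in every mouse, at 7901 and 6098 CPM in fl128. Rgs5, Pdgfrb, Kcnj8 and Abcc9 of the same list had the reverse order in cD2KO mice. Rgs5 was at 2318, 1224 and 841 CPM in fl125, fl126 and fl128, so the order of the sum is not that of all mural markers. Markers of muscle fibers also had this order in cD2KO mice, at 4901, 5598 and 9245 CPM, beside 4457, 5763 and 2815 CPM in WT, with 2 of 14 higher and 0 lower. The sum of 20 endothelial markers went the other way, from 548, 713 and 745 CPM in WT to 457, 383 and 451 CPM in cD2KO mice, with 8 of 15 tested lower and 0 higher. The part of mural, fiber or endothelial RNA in the changes of Lama5, Lamb2, Itga3, Itga7, Itga8 and Nid1 was not tested.

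The immune, platelet and fibro-adipogenic sums had the same order within cD2KO mice, but their levels relative to WT differed from those of the mural list. The sum of the fibro-adipogenic markers, which mark connective tissue cells that make matrix, was 4719, 7682 and 6899 CPM in c124, c129 and c130 and 2961, 4820 and 6096 CPM in fl125, fl126 and fl128, with 4 of 13 tested lower and 1 higher. The part of fibro-adipogenic RNA in the lower values of Nid1 and Lama2 was not tested. Schwann cell markers were at 4771 to 7265 CPM in WT and 6642 to 7405 CPM in cD2KO mice, with 3 of 10 lower and 0 higher. The shares of all genes beside these counts were 6.62% lower and 5.34% higher. The platelet list, at 406 to 608 CPM in WT and 16.3 to 174 CPM in cD2KO mice, rested on Pf4, and 8 of its 9 genes had no count in at least 1 mouse. The 12 muscle stem cell markers summed to 2334, 1840 and 2406 CPM in WT and 3288, 2562 and 2469 CPM in cD2KO mice, with 3 higher (Myf5, Des and Cdh15) and 0 lower. Within cD2KO mice the sum was highest in fl125, as were Pax7 and Chodl, whereas Des had the order of Itga7 and Lamb2, at 451, 527 and 838 CPM in fl125, fl126 and fl128. In c130 Des was at 367 CPM, and the sums of c130 and fl128 differed by less than Des did. The separation of the sums between groups therefore rested on Des.

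**Figure D4:**
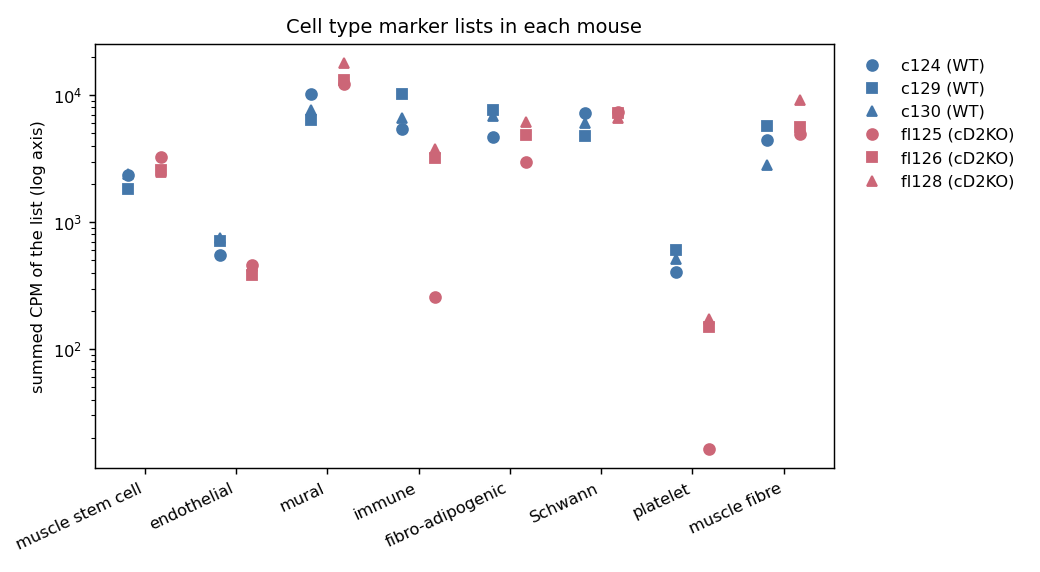
Summed CPM of 8 cell type marker lists in each mouse, on a log axis, with WT mice in blue and cD2KO mice in red. The immune and platelet sums are lower in all cD2KO mice with fl125 lowest. The mural sum, made up mostly of Acta2 and Myh11, is higher in all cD2KO mice. The muscle stem cell sum of every cD2KO mouse is above all WT mice, narrowly so for fl128 (2469 CPM) over c130 (2406 CPM).

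Genes linked to these receptors and ligands were read from the same fit, as 5 lists with 88 genes, of which 75 were tested. Of these, 11 rose and 4 fell (14.7% and 5.33%, beside 5.34% and 6.62% of all genes), with a median log2 fold change of 0.09, and edgeR's adjusted p was under 0.1 for 0 of them. Without fl125 the number that rose was 19 and without fl128 it was 3, so this count rested on which cD2KO mice were included. The lists too were chosen with earlier results of these data known, so their shares are no independent measure of an excess. The lists for integrin adaptors and kinases, leukocyte integrin partners and other basement membrane genes are described gene by gene. Inside the cell, 5 of 26 tested adaptors and kinases rose and 1 fell (19.2% and 3.85%, beside 5.34% and 6.62% of all genes). The actin crosslinkers Flna and Actn1 had log2 fold changes of 0.82 and 0.77 (adjusted p of 0.139 and 0.156 by edgeR). Flna was at 1249, 959.8 and 1183 CPM in c124, c129 and c130 and at 1618, 1836 and 2530.1 CPM in fl125, fl126 and fl128. Both genes had all cD2KO mice above all WT mice and increased in the order fl125, fl126 and fl128. Cd151, a tetraspanin that binds laminin receptors, and Tns1, the gene of tensin 1, rose by 0.58 and 0.48 on the log2 scale. Ilk, the fifth, which was chosen after its values were seen and encodes integrin-linked kinase, rose by 0.56, and the groups overlapped for Ilk and Cd151.

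Of the 22 other basement membrane genes tested, 3 rose and 1 fell (13.6% and 4.55%, beside 5.34% and 6.62% of all genes). Smoc2, the gene of a matricellular protein, which is also in the fibro-adipogenic marker list, was at 121, 149 and 164 CPM in WT and 69.8, 81.8 and 91.2 CPM in fl125, fl126 and fl128. It fell by 0.84 on the log2 scale with all cD2KO mice below all WT mice (SE 0.20, adjusted p of 0.105 by edgeR). Bcam, a receptor for the laminin alpha 5 chain, was at 529.9, 489.9 and 581 CPM in c124, c129 and c130 and at 471, 1101 and 1824 CPM in fl125, fl126 and fl128. Its groups overlapped because fl125 was the lowest of all mice, and its log2 fold change was 1.08 (SE 0.41, adjusted p of 0.365 by edgeR). Col4a6, a minor collagen IV chain, and Tinagl1, a matrix glycoprotein of vessels, had log2 fold changes of 1.90 and 0.63 (adjusted p of 0.228 and 0.396 by edgeR).

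**Figure D5:**
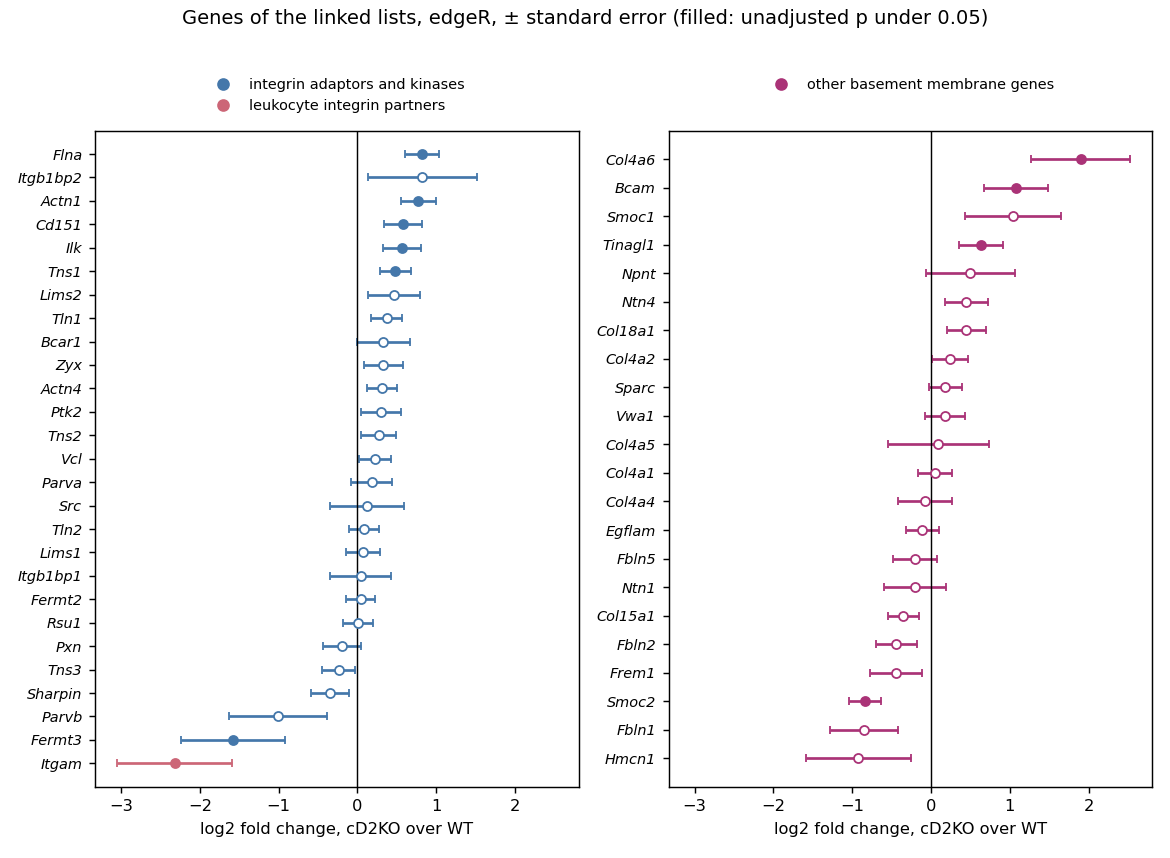
Log2 fold change (cD2KO over WT, edgeR) of the 26 adaptors and kinases, 1 leukocyte integrin partner and 22 other basement membrane genes tested, with whiskers of 1 standard error and filled points at an unadjusted p under 0.05. Most adaptors sit to the right of 0, Itgam and Fermt3 lie farthest to the left, and Col4a6 lies farthest to the right.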

How the data were processed

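RNA of qMuSCs sorted from 3 WT and 3 cD2KO mice was sequenced, a library per mouse. The authors deposited raw counts of reads per gene as whole numbers, without normalization. The submitters' processing notes name bcl2fastq, STAR 2.6.0a, HTSeq 0.9.1 and mm10. The annotation, the strand setting, the handling of duplicates and whether reads came from whole transcripts are not given in the sources used here. Groups came from the genotype labels. Symbols, coordinates and exon lengths (the union of all annotated exons of a gene) were from GENCODE M21 (30934 of 31053 identifiers matched).

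The study's expression minimum, an average over 10 after DESeq2 normalization, left 11633 genes. These were scaled by TMM and compared in edgeR 4.0.16 (R 4.3.3) by robust quasi-likelihood F-tests without covariates, with Benjamini-Hochberg adjustment over all genes tested. Members and gene lists were chosen with earlier results of these data known. Members were named if they passed an unadjusted p of 0.05 or did not overlap between groups, with values per mouse, and otherwise by log2 fold change; linked lists by smallest p. Alternatives were DESeq2 1.42.0, voom in limma 3.58.1, other scaling factors, other minimums, a non-robust fit, an adjusted p under 0.1 and each mouse left out. No library pair agreed within sampling noise (lowest chi-square per degree of freedom 8.69). That replicates are separate mice was taken from their names. Floors cover counting error only. Some results on single genes are not reported here.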

Additional observations from a re-analysis of the deposited data

How the results depend on the processing

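Lama5 and Itga7 kept an unadjusted p under 0.05 in every setting run, and the direction of all 6 members that passed was kept throughout. By DESeq2 4 members were higher and 0 lower, as Itgb2 (log2 fold change -1.97) and Nid1 (-0.43) no longer passed. With voom, DESeq2 size factors, no minimum or a minimum mean of 50, 1 member was lower. The minimum mean of 50 left 21 members, with a median log2 fold change of 0.22 and 505 lower genes among all. Without a minimum 939 genes were higher. At an adjusted p under 0.1, members gave 0 higher and 0 lower, and all genes 33 and 57. With single mice left out, members gave 3 to 8 higher and 0 to 2 lower with a median of -0.02 to 0.14, all genes gave 402 to 933 higher and 399 to 874 lower, and the linked lists gave 3 to 19 higher and 2 to 5 lower. Lamc1 passed without fl128 (0.52). Among members that did not pass, Hspg2 turned to 0.01 by DESeq2, its size factors and no minimum, 0.04 by voom, and 0.17, 0.16 and 0.11 without c124, c130 and fl128. With single mice left out the 5 other members that turned ranged from -0.11 to 0.60 (Itga2b), -0.33 to 0.08 (Itga6), -0.13 to 0.27 (Itgav), -0.13 to 0.44 (Itgb4) and -0.30 to 0.83 (Lamc3). The cause was not tested. No paired analysis was possible because the labels give the mice of the groups no shared numbers. Genes near 1 CPM could not be compared at this depth.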
